A study of Mus musculus with 20 samples.

Results

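Expression of 36 hypoxia and glycolysis genes was compared between *Rnaseh2c* knockdown and scramble control samples of Mvt1, a mouse mammary carcinoma line of FVB background. The 36 genes were chosen by symbol, as factors that sense oxygen, as targets of hypoxia-inducible factor (HIF) or as steps of glycolysis, with earlier results of these data known. Of the 36 members, 35 were listed among the 20188 genes measured in tumors and 36 among the 50667 Ensembl genes measured in cultured cells. No value for *Pkm*, the pyruvate kinase gene, was used in the tumors.

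The tumor comparison used mRNA of 3 primary mammary tumors grown from cells with a scramble shRNA (scr) and 3 grown from cells with the shRNA sh4 against *Rnaseh2c*, a subunit of the RNase H2 enzyme, each taken 30 days after implantation in FVB mice. Each of 3 experiments gave a scr and a sh4 tumor, and the RNA came from small sections of tumor, so that host cells are included. The cell comparison used total RNA of 3 scr plates and 3 sh4 plates grown under puromycin. All sh4 samples derive from 1 shRNA. The plates come from the same transduced lines, and nothing states that they are separate cultures. The mice, female and virgin, were about 6 weeks old when obtained.

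Cells respond to low oxygen mainly through the HIF transcription factors. With oxygen present, prolyl hydroxylases of the EGLN family mark the HIF alpha subunits for destruction. When oxygen falls the subunits persist, pair with ARNT and switch on genes for glucose uptake, glycolysis, lactate export, removal of mitochondria and pH control. Solid tumors often hold poorly supplied regions, and many mammary carcinoma cells also run glycolysis in the presence of oxygen. HIF is regulated largely at the protein level, so the RNA of *Hif1a* is not itself a measure of HIF activity.

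*Rnaseh2c* (chromosome 19, mm9, from 5601873 to 5603439) was lower in the sh4 group of both tables. It was at 26.9, 52.0 and 25.9 RPKM (reads scaled to transcript length and library size) in the scr tumors and at 10.2, 22.4 and 19.8 RPKM in the sh4 tumors. The groups did not overlap (p = 0.1 by an exact permutation test, two-sided, for which 3 against 3 can give no smaller p). In the cells it was at 5.83, 7.06 and 5.34 FPKM (fragments in place of reads) in scr and 3.19, 5.36 and 4.28 FPKM in sh4, and here the groups overlapped (p = 0.2 by the same exact permutation test). Scr plate 3 was just below sh4 plate 2, and the difference of the means was 29.7%.

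Read numbers are not given for either table, so the depth is unknown and the error is judged from the spread between libraries. Tumor libraries differed in content. The summed level of 8 adipocyte markers was 2504 RPKM in scr tumor 2 and 40.9 to 315 RPKM in the other 5 tumors. The 7 mammary epithelial markers summed to 1106 RPKM in scr tumor 2 and 415 to 744 RPKM in the other 5. Red blood cell markers summed to 804 RPKM in scr tumor 2 and 66.2 to 362 RPKM in the other 5. The 6 T cell markers summed to 22.0 to 30.6 RPKM in scr and 45.8 to 77.2 RPKM in sh4 tumors, with 5 of 6 above in all 3 sh4 tumors. The 7 endothelial markers summed to 18.2 to 21.6 and 21.8 to 42.5 RPKM, with 3 of 7 above in all sh4 tumors. Skeletal muscle markers summed to 117, 8.75 and 7.36 RPKM in scr and 7.03, 39.0 and 57.4 RPKM in sh4 tumors. Fibroblast markers summed to 455 to 1028 RPKM in scr and 450 to 1194 RPKM in sh4 tumors. Macrophage sums were 1023 to 1185 RPKM in scr and 1124 to 1436 RPKM in sh4 tumors. Neutrophil sums were 10.8 to 17.7 RPKM in scr and 6.40 to 20.1 RPKM in sh4 tumors. The epithelial keratins *Krt8* and *Krt18* were the main mammary epithelial markers of both tables, while *Epcam* and *Cdh1* were at or near 0 in the cells. A length index was taken as the median deviation of short genes (transcripts below 1000 bases) less that of long genes (above 4000 bases). It ran from -0.32 to 0.37 among the tumors and from -0.06 to 0.05 among the plates. In the cells it was -0.057, -0.010 and -0.016 in scr and 0.049, 0.040 and 0.0054 in sh4 plates. These groups did not overlap, so as a covariate in cells it cannot be cleanly separated from the knockdown.

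The consensus core of the hypoxia response element is ACGTG or GCGTG, which read CACGT and CACGC on the other strand. The promoters of 4 members are shown, because *Slc16a3* and *Aldoc* passed the test in the cells, *Bnip3* had the widest difference in the tumors and *Ldha* stood in opposite directions in tumors and cells. Each run covers 150 bases before to 50 bases after a RefSeq transcription start (GRCm38.p6), 5′ to 3′ on the gene's strand. Capitals mark matches to the 4 motif forms, and CACGTG counts as an overlapping pair of matches. *Slc16a3* is at chr11:120948917-120949116 on the plus strand and *Aldoc*, the earlier entry of 2, at chr11:78322923-78323122 on the plus strand. *Bnip3* is at chr7:138909457-138909656 on the minus strand and *Ldha*, the earlier entry of 2, at chr7:46845654-46845853 on the plus strand.
Slc16a3: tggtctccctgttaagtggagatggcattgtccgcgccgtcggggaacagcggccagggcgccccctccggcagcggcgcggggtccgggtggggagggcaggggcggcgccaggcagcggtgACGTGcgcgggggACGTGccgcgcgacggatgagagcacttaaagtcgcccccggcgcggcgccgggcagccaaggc
Aldoc: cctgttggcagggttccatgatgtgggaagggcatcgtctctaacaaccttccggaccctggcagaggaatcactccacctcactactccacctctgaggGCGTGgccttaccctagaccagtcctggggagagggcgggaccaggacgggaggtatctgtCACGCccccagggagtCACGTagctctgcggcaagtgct
Bnip3: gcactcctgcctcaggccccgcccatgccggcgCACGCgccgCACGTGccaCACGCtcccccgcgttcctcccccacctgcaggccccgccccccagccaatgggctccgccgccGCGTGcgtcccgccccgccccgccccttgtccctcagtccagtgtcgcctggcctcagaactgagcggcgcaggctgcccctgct
Ldha: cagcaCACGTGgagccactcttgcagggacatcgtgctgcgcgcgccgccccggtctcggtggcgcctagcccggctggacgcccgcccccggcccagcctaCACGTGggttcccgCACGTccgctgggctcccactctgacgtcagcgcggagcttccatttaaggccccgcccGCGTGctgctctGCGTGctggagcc
These windows hold 2, 3, 5 and 7 matches. Over whole promoter entries of 300 bases, 36 of 44 entries for 32 matched members (81.8%) held at least 1 match, beside 43.8% of all 32851 promoters. For ACGTG alone the shares were 56.8% and 19.6%. The members' promoters were also richer in the dinucleotide CG that each motif contains, with a median of 23.5 against 7 per promoter. A match is only a run of letters, and no binding was measured.

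In tumors the members as a group were lower in the sh4 group. Of 35 members tested, 34 had a negative log2 fold change (sh4 minus scr, on log2(RPKM + 0.5)) and only *Slc2a3* was not, at 0.01. The median over the members was -0.33, beside -0.04 over all 13487 genes tested, of which 57.4% were negative. In 14 members all 3 sh4 tumors lay below all 3 scr tumors, a share of 40.0% beside 4.98% of all genes, and in 0 members did all sh4 tumors lie above, beside 4.19% of all genes. None of the 35 passed limma at an adjusted p under 0.05 (smallest adjusted p among members 0.995), and 0 of all genes passed in either direction, a share of 0%. At an unadjusted limma p under 0.05, 9 members were lower, beside 273 of all genes (2.02%), and 0 were higher, beside 291 of all genes (2.16%). With median-ratio scaling of the libraries 31 members were negative and 8 did not overlap (4.83% of all genes). In that setting 4 were lower at an unadjusted limma p under 0.05, beside 264 of all genes. Scr tumor 2 had the highest sums of adipocyte, mammary epithelial and red blood cell markers. Without it 33 members were negative with a median of -0.30, beside -0.09 over all genes. The paper reports a reduced primary tumor mass for the sh4 line, in FVB and in nude mice. The sample titles give no mass, so tumor mass and knockdown cannot be told apart here. The part of mass in the members' level was not tested.

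**Figure D1:**
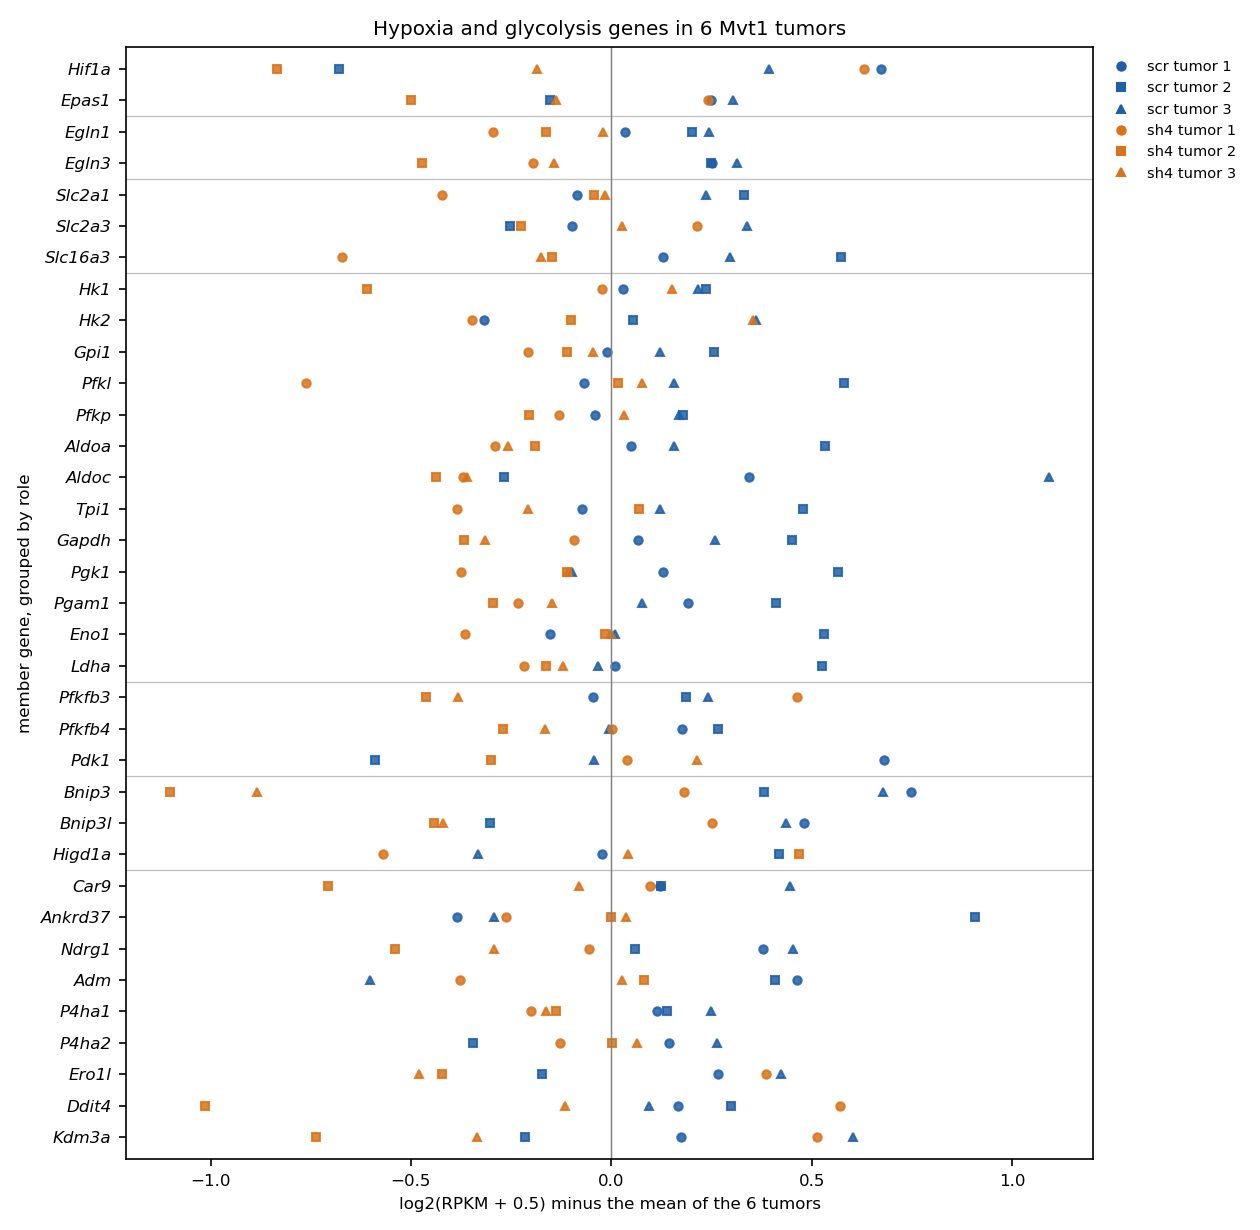
Level of each of the 35 members tested in 6 tumors, as log2(RPKM + 0.5) minus the mean of the 6 tumors (x axis), with 1 row per gene grouped by role (y axis), blue for scr and orange for sh4, and 1 marker shape per experiment. In 14 rows every orange point lies left of every blue point, and in no row is the reverse seen.

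The difference was present in each of the 3 experiments. Within experiment 1, 29 of 35 members were lower in the sh4 tumor (median -0.23, beside 0.05 over all genes). Within experiments 2 and 3, 31 of 35 were lower each time, with medians of -0.52 and -0.26 beside -0.08 and -0.09 over all genes. In 25 members the sh4 tumor was the lower in all 3 experiments, beside 15.01% of all genes. Per library, the median deviation of the members from their own means was 0.12, 0.25 and 0.24 in the scr tumors and -0.20, -0.23 and -0.12 in the sh4 tumors. The same median over all genes was 0.05, -0.07 and 0.09 in scr and 0.10, -0.16 and -0.01 in sh4, where the groups overlap. Fewer cells of a type and less RNA per cell cannot be told apart in such bulk samples. The T cell and endothelial sums were higher in the sh4 group, in which the members were lower. In sh4 tumors 1, 2 and 3 the endothelial sums were 42.5, 21.8 and 32.5 RPKM and the T cell sums 45.8, 77.2 and 57.9 RPKM. The member medians of the same 3 tumors were -0.20, -0.23 and -0.12. The part of these cell types in the members' level was not tested.

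**Figure D2:**
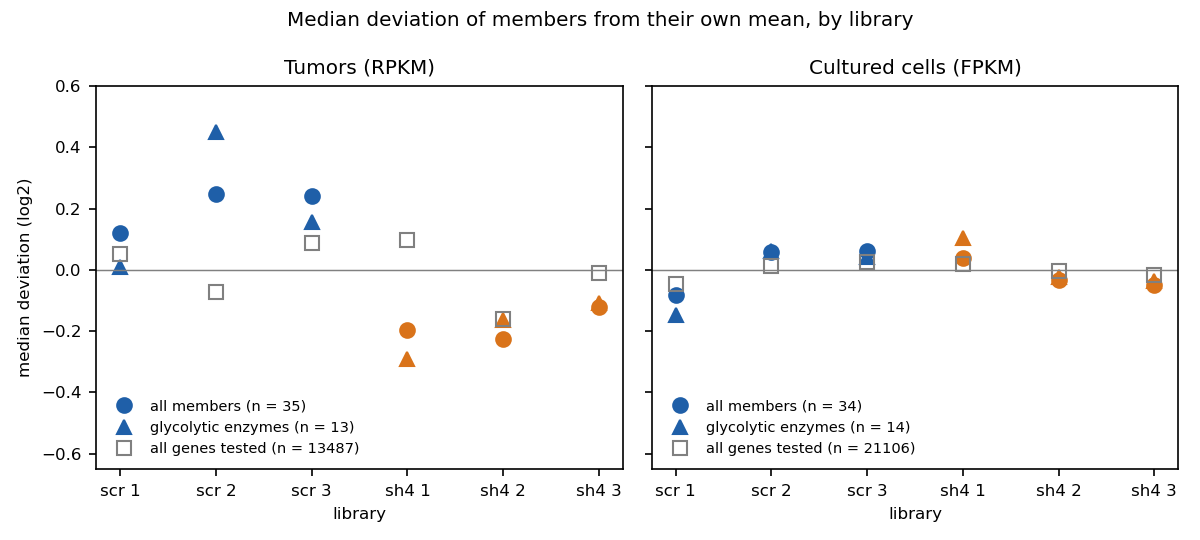
Median deviation (log2, y axis) of all members (circles), the glycolytic enzymes (triangles) and all genes tested (open squares) in each library (x axis), blue for scr and orange for sh4, in tumors (left) and cells (right). Member medians are 0.12 to 0.25 in scr tumors and -0.23 to -0.12 in sh4 tumors, while in the cells the groups overlap.

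The HIF transcription factors differed little beside their spread. *Hif1a*, the main HIF alpha subunit, was at 16.2, 6.03 and 13.2 RPKM in scr and 15.7, 5.36 and 8.69 RPKM in sh4 tumors. The second tumor of each group was low and the groups overlapped (log2 fold change -0.26, SE 0.45). *Epas1*, the other HIF alpha subunit, was at 4.57, 3.34 and 4.77 RPKM in scr and 4.55, 2.52 and 3.38 RPKM in sh4 (log2 fold change -0.27, SE 0.26), again with overlap. *Hif1a* was 1.80 to 3.53 times the level of *Epas1* in each tumor. The low *Hif1a* tumors, scr 2 and sh4 2, are the 2 with the highest length index, 0.25 and 0.37, and the part of transcript length in this was not tested.

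Both oxygen sensors were lower in sh4 tumors without overlap. *Egln3*, a HIF prolyl hydroxylase that is itself a HIF target, was at 23.9, 23.9 and 25.0 RPKM in scr and 17.4, 14.3 and 18.1 RPKM in sh4. Scr tumors lay close together and every sh4 tumor was under them (log2 fold change -0.54, SE 0.16, 31.6% lower). *Egln1*, the main HIF prolyl hydroxylase, had a log2 fold change of -0.32 (SE 0.17) and groups that did not overlap either.

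Among transporters, *Slc16a3* (chromosome 11, mm9, from 120809794 to 120822182), which exports lactate from glycolytic cells, was at 17.3, 23.8 and 19.5 RPKM in scr and 9.73, 14.2 and 13.9 RPKM in sh4 tumors. All sh4 tumors were below all scr tumors (log2 fold change -0.67, SE 0.21, 37.5% lower). *Slc2a1*, the main glucose importer, averaged 32.2 ± 4.75 RPKM in scr and 25.7 ± 3.91 RPKM in sh4 tumors (SD, n = 3), with overlap and a log2 fold change of -0.32 (SE 0.19). *Slc2a3*, another glucose importer, was at 0.746 and 0.745 RPKM on average, and *Slc2a1* was 22.8 to 67.5 times as high in each tumor.

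All 13 glycolytic enzymes measured in tumors were negative, and 7 of them did not overlap. The 13 also stayed negative with quantile normalization and with median-ratio scaling. Summed over the 13 enzymes, expression was 3070, 4290 and 3281 RPKM in scr and 2552, 2776 and 2762 RPKM in sh4 tumors, so that every sh4 tumor was below every scr tumor. The means were 3547 ± 652 and 2696 ± 126 RPKM (SD, n = 3). The enzyme median over the group was a log2 fold change of -0.35, from -0.78 for *Aldoc* to -0.06 for *Hk2*.

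*Gapdh*, which oxidises glyceraldehyde phosphate and was the highest of the members in tumors, was at 639, 834 and 731 RPKM in scr and 573, 474 and 491 RPKM in sh4. The groups did not overlap (log2 fold change -0.52, SE 0.19, 30.3% lower). *Aldoa*, the main aldolase, was at 348, 487 and 375 RPKM in scr and 275, 295 and 282 RPKM in sh4, also without overlap (log2 fold change -0.49, SE 0.18). *Aldoc* (chromosome 11, mm9, from 78136470 to 78141283), the aldolase best known from brain, was at 12.1, 7.76 and 20.7 RPKM in scr and 7.19, 6.84 and 7.25 RPKM in sh4. Its sh4 tumors were close together while the scr tumors spread, and scr tumor 2 was only just above them (log2 fold change -0.78, SE 0.33).

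*Pgam1*, *Pgk1*, *Ldha* and *Gpi1*, the enzymes for phosphoglycerate mutase, phosphoglycerate kinase, lactate production and glucose phosphate isomerase, also did not overlap. Their log2 fold changes were -0.45, -0.40, -0.33 and -0.24, of which only that of *Pgam1* had an unadjusted limma p under 0.05. *Pgk1* in scr tumor 3, at 236 RPKM, was close to the highest sh4 value of 234 RPKM. *Tpi1*, *Pfkl*, *Hk1*, *Eno1*, *Pfkp* and *Hk2* overlapped, with log2 fold changes of -0.45 to -0.06. Scr tumor 2 was the highest of the 6 in every one of the 13 enzymes except *Hk2* and *Aldoc*. The 13-enzyme median deviated by 0.45 in scr tumor 2, beside 0.01 and 0.16 in the other scr tumors. *Gapdh*, *Pgk1*, *Pgam1*, *Ldha*, *Aldoa*, *Eno1* and *Tpi1* have processed pseudogenes of near-identical sequence, so that their levels are uncertain where reads could be shared.

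The regulators of glycolysis overlapped. *Pfkfb3* and *Pfkfb4*, enzymes that set the level of an activator of phosphofructokinase, had log2 fold changes of -0.25 (SE 0.29) and -0.29 (SE 0.19). *Pdk1*, the kinase that holds pyruvate out of mitochondrial oxidation, was at 4.05 ± 2.02 RPKM in scr and 3.71 ± 0.740 RPKM in sh4 tumors (SD, n = 3). Its log2 fold change of -0.03 was 0.04 with quantile normalization and 0.02 with median-ratio scaling.

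*Bnip3* (chromosome 7, mm9, from 146082519 to 146101202), a HIF target that sends mitochondria for removal, had the widest difference of the members. It was at 64.1, 49.5 and 61.0 RPKM in scr and 43.1, 17.4 and 20.3 RPKM in sh4 tumors. The sh4 tumors of experiments 2 and 3 were far below every scr tumor and that of experiment 1 just below (log2 fold change -1.20, SE 0.33, 95% interval -1.96 to -0.44, 53.7% lower). Within experiments 1, 2 and 3 the sh4 tumor differed by -0.57, -1.48 and -1.56 on the log2 scale. Its relative *Bnip3l* overlapped (log2 fold change -0.41, SE 0.28), and the ratio of *Bnip3* to *Bnip3l* was 1.25, 1.67 and 1.23 in scr and 0.988, 0.651 and 0.746 in sh4 tumors. *Higd1a*, a small mitochondrial protein induced by hypoxia, was at 19.7 ± 5.37 and 19.6 ± 6.93 RPKM (SD, n = 3), and its log2 fold change of -0.04 was 0.01 with quantile normalization and 0.02 with median-ratio scaling.

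Of the 9 other hypoxia-responsive members, 9 were negative and 3 did not overlap. *Ndrg1*, a stress-response gene strongly induced by hypoxia in many cells, was at 76.4, 61.2 and 80.6 RPKM in scr and 56.5, 40.2 and 47.9 RPKM in sh4 tumors. All sh4 tumors were lower (log2 fold change -0.59, SE 0.19, 33.8% lower). *Car9*, the cell surface carbonic anhydrase often used as a hypoxia marker, was low throughout, at 0.816, 0.817 and 1.15 RPKM in scr and 0.792, 0.242 and 0.644 RPKM in sh4. The first sh4 tumor was hardly below the scr tumors (log2 fold change -0.46, SE 0.24).

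*P4ha1*, a collagen prolyl hydroxylase subunit, averaged 40.6 ± 2.06 RPKM in scr and 32.1 ± 0.700 RPKM in sh4 tumors (SD, n = 3), without overlap and with a log2 fold change of -0.33 (SE 0.14). Its relative *P4ha2* was at 15.3 ± 3.32 and 14.7 ± 1.01 RPKM, a log2 fold change of -0.04 that was 0.01 with quantile normalization and 0.02 with median-ratio scaling. *Ero1l*, *Ddit4*, *Kdm3a*, *Adm* and *Ankrd37* overlapped, with log2 fold changes of -0.37 to -0.15. *Ddit4*, an inhibitor of mTOR signaling, was at 40.3, 13.1 and 24.8 RPKM in sh4 tumors, above and below the scr range of 28.8 to 33.3 RPKM. *Ankrd37* was at 24.9 RPKM in scr tumor 2 and at 9.90 to 13.4 RPKM in the other 5 tumors, and without scr tumor 2 its log2 fold change was 0.26.

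Beyond the members, 74 of 83 further genes of the pathway were tested in tumors, of which 55 were negative with a median of -0.14. Further hypoxia-responsive genes stood nearest to the members, with 25 of 29 negative and a median of -0.32. Of them 4 did not overlap, all lower (13.8%, beside 4.98% of all genes). The 13 HIF pathway regulators, with 8 negative and a median of -0.04, stood near all genes. Medians were -0.11 for 15 further glycolysis genes, -0.15 for 10 genes of pyruvate entry into mitochondria and -0.06 for 7 of the pentose phosphate pathway. None passed the adjusted threshold in limma. Beside 2.02% of all genes, 3 of the further genes were lower at an unadjusted p under 0.05. These were *Epo*, *Vegfa* and *Pgm2*.

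*Epo*, the classic HIF target erythropoietin, was at 3.98, 4.64 and 3.44 RPKM in scr and 2.60, 1.27 and 2.26 RPKM in sh4 tumors (log2 fold change -0.86, SE 0.27). *Vegfa*, the angiogenic growth factor, was at 8.83, 9.53 and 10.5 RPKM in scr and 7.22, 4.18 and 6.25 RPKM in sh4 (log2 fold change -0.69, SE 0.23). *Pgm2*, a phosphoglucomutase, had a log2 fold change of -0.46 (SE 0.18). In all of these the sh4 tumors lay below the scr tumors.

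In the cultured cells the median of the members was near that of all genes. Of 34 members tested, 21 were negative (26 with quantile normalization), and the median log2 fold change was -0.05 beside -0.0022 over all 21106 genes. *Slc16a3* and *Aldoc* fell in limma at an adjusted p under 0.05, so 2 members were called lower, beside 0.758% of all genes, and 0 were called higher, beside 0.521%. All 3 sh4 plates lay below all scr plates in 9 members (26.5%, beside 13.8% of all genes) and above in 3 (8.82%, beside 13.6%). At an unadjusted limma p under 0.05, 7 members were lower and 2 higher, beside 9.33% and 9.55% of all genes. With the length index as a covariate 31 of the 34 were negative, with a median of -0.17, beside -0.06 over all genes. That index was higher in every sh4 plate than in every scr plate, so this setting cannot separate it from the knockdown. *Slc2a3* and *Adm* were not tested, since their means were under 0.1 FPKM. The per-library medians of the members were -0.08, 0.06 and 0.06 in scr and 0.04, -0.03 and -0.05 in sh4 plates, so the groups overlapped.

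*Slc16a3* was at 3.03, 3.47 and 3.59 FPKM in scr and 2.15, 1.83 and 1.74 FPKM in sh4 plates. Every sh4 plate was far below every scr plate (log2 fold change -0.68, SE 0.09, limma adjusted p = 0.0398, 43.3% lower). *Aldoc* was at 2.40, 2.58 and 2.48 FPKM in scr and 1.60, 1.65 and 1.43 FPKM in sh4 plates, again well apart (log2 fold change -0.54, SE 0.07, limma adjusted p = 0.0362, 37.3% lower). *Aldoa*, the more abundant aldolase, was at 113 ± 10.2 and 107 ± 6.63 FPKM (SD, n = 3) and overlapped, and its ratio to *Aldoc* was 42.1 to 46.8 in scr and 64.2 to 71.6 in sh4 plates. Both limma calls were lost without the filter on low values (adjusted p = 0.116 and 0.0775, at the same fold changes). With the plate number as a block both were lost as well (limma adjusted p = 0.252 and 0.243). They were also lost with the length index as a covariate (limma adjusted p = 0.0988 and 0.120), at wider log2 fold changes of -0.94 and -0.68. That index itself differed between scr and sh4 plates without overlap. Leaving out any plate ended the call of *Aldoc* (limma adjusted p 0.051 to 0.147), and leaving out any plate but scr 1 ended that of *Slc16a3* (0.046 to 0.162 over the 6).

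**Figure D3:**
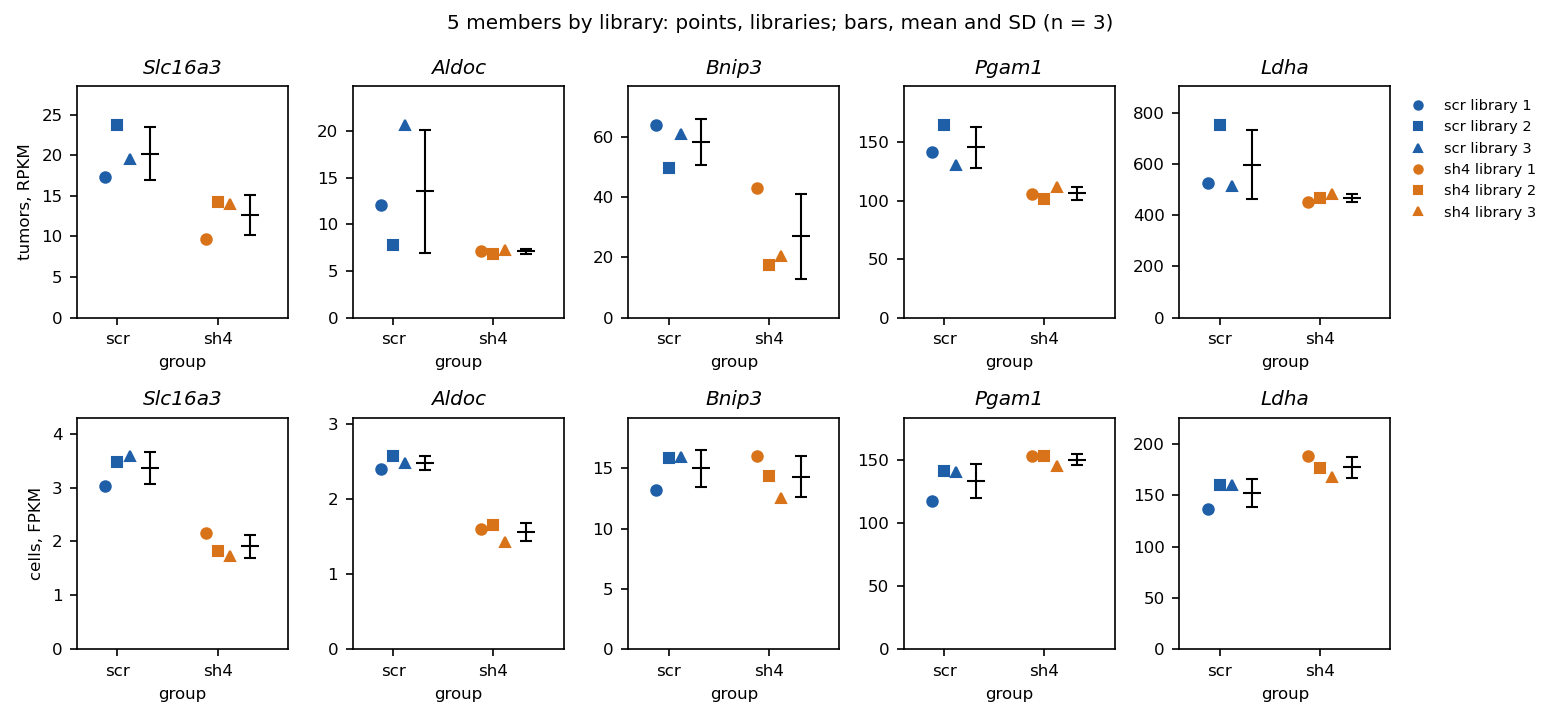
Levels of 5 members in tumors (top, RPKM) and cultured cells (bottom, FPKM), with 1 point per library, and bars for the mean and SD (n = 3) of scr (blue) and sh4 (orange). *Slc16a3* and *Aldoc* are lower in sh4 in both rows, *Bnip3* is apart in tumors only, and *Pgam1* and *Ldha* lie below in tumors and above in cells.

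*Epas1* was the next lowest, at 1.61, 1.16 and 1.00 FPKM in scr and 0.759, 0.693 and 0.650 FPKM in sh4 plates, without overlap. It did not pass after adjustment (log2 fold change -0.53, SE 0.14, limma adjusted p = 0.118). *Hif1a* was at 6.05, 6.81 and 6.24 FPKM in scr and 6.17, 5.98 and 5.99 FPKM in sh4 plates, with overlap (log2 fold change -0.07, 95% interval -0.21 to 0.08). *Hif1a* was 3.76 to 6.24 times the level of *Epas1* in scr plates and 8.13 to 9.22 times in sh4 plates. *Egln1* and *Egln3* overlapped, with log2 fold changes of 0.10 and -0.06.

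Of the 14 glycolytic enzymes 7 were negative, and their median was -0.00013. *Pkm*, the highest of the members in cells, was at 233, 274 and 285 FPKM in scr and 306, 283 and 269 FPKM in sh4 plates, with overlap (log2 fold change 0.12, SE 0.10). *Ldha* (chromosome 7, mm9, from 54096845 to 54110997) was at 137, 161 and 160 FPKM in scr and 188, 176 and 168 FPKM in sh4 plates. Here all sh4 plates were above all scr plates (log2 fold change 0.22, SE 0.09, limma adjusted p = 0.252). *Pgam1* was at 118, 141 and 141 FPKM in scr and 153, 153 and 145 FPKM in sh4 plates, also above (log2 fold change 0.18, SE 0.09, limma adjusted p = 0.324). Both became negative, at -0.04 and -0.06, with the length index as a covariate, which itself differed between scr and sh4 plates without overlap. The first scr plate was the lowest of the 6 in every one of the 14 enzymes except *Hk2*, *Pfkl* and *Aldoc*. Its values summed over all Ensembl genes were also the lowest, at 659082 FPKM beside 785372 to 864566 FPKM in the other plates.

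The other enzymes overlapped, with log2 fold changes of -0.12 for *Hk2* to 0.12 for *Eno1*. *Hk1* was 0.165 to 0.185 times the level of *Hk2* in the plates, whereas in the tumors it was 1.31 to 2.42 times that level. *Higd1a* was at 1.33, 1.60 and 1.82 FPKM in scr and 2.24, 1.88 and 2.40 FPKM in sh4 plates, above without overlap and the widest positive difference of the members (log2 fold change 0.36, SE 0.12, limma adjusted p = 0.185). *Bnip3*, so far apart in tumors, was at 13.2, 15.8 and 15.9 FPKM in scr and 16.0, 14.3 and 12.6 FPKM in sh4 plates (log2 fold change -0.07, SE 0.11), with overlap.

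Lower values without overlap were seen in *Ankrd37*, *Pfkfb4*, *P4ha1*, *P4ha2*, *Ero1l* and *Kdm3a*. *Ankrd37*, an ankyrin repeat protein and HIF target, was at 1.85, 1.77 and 1.90 FPKM in scr and 1.59, 1.44 and 1.35 FPKM in sh4 plates (log2 fold change -0.26, SE 0.07, limma adjusted p = 0.145). *Pfkfb4* was at 1.86, 1.68 and 2.04 FPKM in scr and 1.49, 1.58 and 1.48 FPKM in sh4 plates (log2 fold change -0.22, SE 0.08, limma adjusted p = 0.216). The remaining 4 were 6.08 to 15.5% lower, among them the histone demethylase *Kdm3a* and the endoplasmic reticulum oxidase *Ero1l*. *Ndrg1*, *Car9*, *Ddit4*, *Slc2a1*, *Pdk1*, *Pfkfb3* and *Bnip3l* overlapped, with log2 fold changes of -0.16 to 0.10.

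Among 65 further pathway genes tested in the cells, 26 were negative and the median was 0.03. Limma called 3 lower and 1 higher, beside 0.758% and 0.521% of all genes, and 3 of the 4 are described. *Eno2*, another enolase, fell from 1.42 ± 0.0666 to 0.812 ± 0.0434 FPKM (SD, n = 3; log2 fold change -0.55, limma adjusted p = 0.0355). *Bhlhe40*, a transcriptional repressor downstream of HIF, fell from 16.2 ± 0.838 to 12.4 ± 0.229 FPKM (SD, n = 3; log2 fold change -0.37, limma adjusted p = 0.0453).

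*Fbp2*, which runs a step of glycolysis in reverse, rose from 1.96 ± 0.377 to 3.65 ± 0.0822 FPKM (SD, n = 3; log2 fold change 0.77, limma adjusted p = 0.0450). *Eno2*, *Bhlhe40* and *Fbp2* had groups that did not overlap, and each lost its call in at least 1 alternative (limma adjusted p from 0.0186 to 0.263 over these genes and all alternatives). Of 26 further hypoxia-responsive genes tested, 11 lay below and 5 above without overlap (42.3% and 19.2%, beside 13.8% and 13.6% of all genes). The 7 pentose phosphate genes had a median of 0.15, with 3 above (42.9%), and the 11 genes of pyruvate entry a median of 0.12, with 4 above (36.4%) and 1 below (9.09%).

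**Figure D4:**
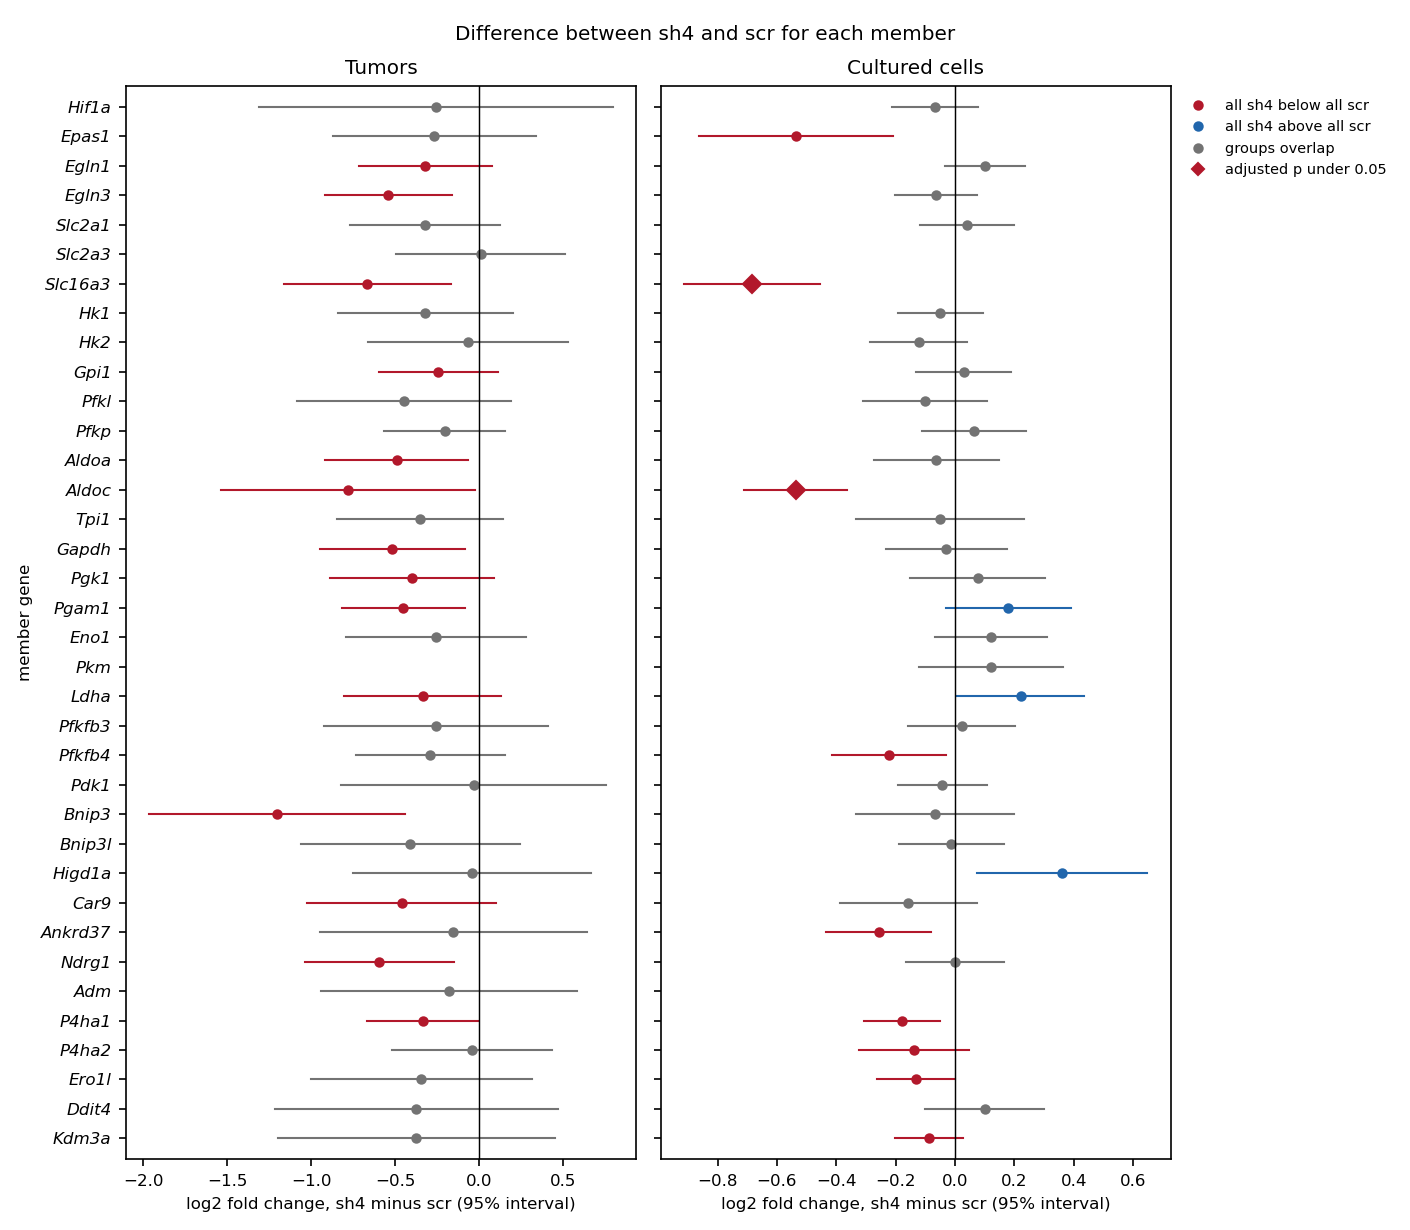
Log2 fold change of each member (sh4 minus scr, points) with its 95% interval from limma (bars) in tumors (left) and cultured cells (right), on x axes of different range, with 1 row per gene. Red marks 14 members in tumors and 9 in cells with all sh4 below all scr, blue marks 3 in cells with all sh4 above, and diamonds mark *Slc16a3* and *Aldoc*, the 2 called in cells.

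Set side by side, 33 members were tested in both tables, which share no libraries. Of these, 21 were negative in both and 12 were negative in tumors and positive in cells. *Slc16a3*, *Aldoc* and *P4ha1* were lower without overlap in both, which is 21.4% of the 14 such members in tumors and 33.3% of the 9 in cells. Neither share is above that of all members tested, of which 26.5% were lower without overlap in cells and 40.0% in tumors. *Slc16a3* had log2 fold changes of -0.67 and -0.68, *Aldoc* of -0.78 and -0.54 and *P4ha1* of -0.33 and -0.18 in tumors and cells. The tables were made separately and from different kinds of RNA, so the difference between them was not tested.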

How the data were processed

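Values were compared within each of 2 tables, 3 scr against 3 sh4 libraries each. The tumor table holds RPKM that the authors deposited (mRNA, HiSeq2500, Trimmomatic, Tophat on mm9 with Ensembl v70 transcripts, Partek). The cell table holds FPKM that the authors deposited (total RNA). For the cells the methods give Tophat, DESeq2 and a GENCODE M15 lncRNA annotation, and the submitters' processing notes list STAR 2.7 and TopHat2 2.1.0 without roles. The 8 exome libraries were not used here.

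Cell Ensembl IDs were paired with symbols by GENCODE vM1 (32709 of 50667), which also gave the mm9 positions, and *Pkm* was matched by its older symbol. Assembled loci without an Ensembl ID were not used. Genes with a mean of at least 0.1 were fitted as log2(value + 0.5) with limma 3.58.1 (R 4.3.3, variance trend, Benjamini-Hochberg over all genes tested, adjusted p under 0.05). A fold change on this scale understates that of low genes. Replicate tumors are separate mice. Nothing states that plates are separate cultures, so their p-values measure the spread between these plates, which may be technical. Percentages lower are from ratios of group means.

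Members and lists were chosen with earlier results of these data known. Values in every library are given for members called, the 8 members with the largest fold change of each table, *Hif1a*, *Epas1* and the highest member. Of other pathway genes those called, or else the 3 with the smallest p, are named, except 1 called in cells that is not reported here, and members described beyond this were chosen with their values seen. Tumors of the same number share an experiment, so the numbers pair scr with sh4. Same-numbered tumors correlated at 0.138, 0.330 and -0.117 after removal of group means. Other settings tried were pseudocounts of 0.1 and 1, a minimum mean of 1 or none, median-ratio scaling, quantile normalization, no variance trend, a block for the replicate number, the length index as a covariate and each library left out in turn. Promoters came from RefSeq (GRCm38.p6).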

Additional observations from a re-analysis of the deposited data

Results flagged for a closer look

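*Pgam1* and *Ldha*, enzymes of lower glycolysis and lactate production, stood in opposite directions in tumors and cells, with no overlap between groups in either. The log2 fold change of *Pgam1* was -0.45 in tumors and 0.18 in cells, and that of *Ldha* was -0.33 in tumors and 0.22 in cells. With the length index as a covariate both cell values were negative (-0.060 for *Pgam1* and -0.038 for *Ldha*). That index was higher in every sh4 plate than in every scr plate. This setting therefore cannot separate it from the knockdown and does not settle the direction. The difference between tumors and cells was not tested, because the tables were made separately.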

How the results depend on the processing

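Depth is unknown in both tables. In tumors the median of the members was negative in all alternatives (-0.38 to -0.28 without 1 tumor). At an unadjusted limma p under 0.05, 9 members were lower, beside 273 of all 13487 genes. The count became 4 with median-ratio scaling (264 of all genes) and 15 with the length index as a covariate (610 of all genes). Without 1 tumor it was 4 to 12. The 12 arose without sh4 tumor 1, where 1377 of 13456 genes were lower. The 14 members without overlap, all lower, became 8 with median-ratio scaling, beside 4.98% and 4.83% of all genes. Members all above numbered 0 to 1 without 1 tumor, beside 5.89 to 12.8% of all genes. All genes called were 7 with no filter on low values and 0 in every other alternative.

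In cells the 2 members called lower became 0 with no filter, 6 with quantile normalization, 0 with the length index and 0 to 1 without 1 plate. With the plate number as a block, 0 members and 0 genes were called. In that setting 4 members were lower at an unadjusted limma p under 0.05, beside 1438 of all genes. Same-numbered plates correlated at -0.061, -0.075 and -0.073, and nothing states whether they were handled together. With quantile normalization 12 members were lower at an unadjusted limma p under 0.05, beside 2387 of all 21106 genes. Without 1 plate 4 to 7 members were, beside 1424 to 2591 of all genes. Below without overlap were 14 with quantile normalization (15.3% of all genes) and 9 to 17 without 1 plate (17.3 to 23.8%). The 17 arose without scr plate 1, where 23.8% of all genes lay below. With median-ratio scaling 5 were above (15.4% of all genes), and without 1 plate 3 to 6 (16.5 to 20.3%). The 270 genes called in all became 64 with no filter, 408 at a mean of at least 1, 1223 with quantile normalization, 1045 with median-ratio scaling, 171 without the trend, 1 with the length index and 2 to 242 without 1 plate. The median of the members was -0.17 with the length index, which in cells cannot be cleanly separated from the knockdown. The experiment block in tumors left 9 members lower at an unadjusted limma p under 0.05, beside 498 of all genes, and 0 called, and changed no call.

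Small fold changes turned sign. In tumors median-ratio scaling gave 0.022 for *Pdk1*, 0.019 for *Higd1a* and 0.016 for *P4ha2*, quantile normalization gave 0.040, 0.012 and 0.013 for the same genes, and the length index gave 0.065 for *Pdk1*. Without 1 tumor the ranges were -0.66 to 0.094 for *Hif1a*, -0.11 to 0.18 for *Slc2a3*, -0.26 to 0.10 for *Hk2*, -0.33 to 0.30 for *Pdk1*, -0.28 to 0.24 for *Higd1a*, -0.38 to 0.26 for *Ankrd37*, -0.53 to 0.0073 for *Adm*, -0.23 to 0.079 for *P4ha2* and -0.75 to 0.041 for *Ddit4*. In cells quantile normalization gave -0.042 for *Slc2a1*, -0.040 for *Gpi1*, -0.019 for *Pgk1*, -0.031 for *Pkm* and -0.012 for *Ndrg1*, which was -0.0023 with median-ratio scaling. The length index gave -0.10 for *Slc2a1*, -0.14 for *Gpi1*, -0.14 for *Pfkp*, -0.21 for *Pgk1*, -0.060 for *Pgam1*, -0.099 for *Eno1*, -0.16 for *Pkm*, -0.038 for *Ldha*, -0.16 for *Ndrg1* and -0.098 for *Ddit4*. Without 1 plate the ranges were -0.0030 to 0.092 for *Slc2a1*, -0.020 to 0.070 for *Gpi1*, -0.15 to 0.021 for *Tpi1*, -0.11 to 0.029 for *Gapdh*, -0.015 to 0.13 for *Pgk1*, -0.020 to 0.060 for *Pfkfb3*, -0.15 to 0.019 for *Bnip3*, -0.079 to 0.031 for *Bnip3l* and -0.048 to 0.050 for *Ndrg1*. The cause was not tested. Of the other gene values under an alternative, 543 in tumors and 469 in cells kept their sign and side of the threshold, 46 in cells lost a call and 4 gained one.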

Other observations

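Related members were used in different proportion in the libraries. *Egln1* was 0.512 to 0.742 times the level of *Egln3* in tumors and 0.606 to 0.722 times in cells. *Pfkl* and *Pfkp*, both phosphofructokinases, were near equal, with ratios of 0.633 to 1.31 in tumors and 0.822 to 1.08 in cells. *P4ha1* was 2.07 to 3.43 times the level of *P4ha2* in tumors and 9.49 to 11.5 times in cells. *Slc2a1* stood at 29.0 RPKM beside 0.746 RPKM for *Slc2a3* in tumors, and at 35.4 FPKM beside 0.0437 FPKM in cells. These levels are per length within a table and were not compared between tables by a test.

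The members span the range of expression. *Car9* lay at the 17.1th percentile of the genes tested in tumors and at the 18.3th in cells, *Hif1a* at the 69.9th and 70.9th, and *Gapdh* at the 99.2th and 98.8th.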
